A study of Mus musculus with 50 samples.

Results

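The comparison described here is that of soleus muscle of Dnmt3a knockout mice taken 10 min after a bout of treadmill running with soleus of knockout mice at rest. Samples were chosen by genotype and time point in the sample labels, which gave 10 of the 44 samples with counts, 5 at 10 min and 5 at rest, of 50 samples in the series. The assay was RRBS (reduced representation bisulfite sequencing), which reads DNA cut by MspI at CCGG after unmethylated cytosines have been converted. The knockout mice (mD3AKO) carried Dnmt3a flox/flox and Cre recombinase driven by the muscle creatine kinase promoter (mCK-Cre), which removes exon 19, and the mice called WT carried Dnmt3a flox/flox without Cre. All were 12-week-old C57BL/6 mice that had been familiarised with the treadmill. Exercised mice ran for 30 min, and resting mice spent as long on a sham treadmill. The rest group held 3 females and 2 males, and the 10 min group 2 females and 3 males. Each sample was a single soleus, a slow postural muscle of the lower leg.

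DNMT3A is one of the de novo DNA methyltransferases, which place methyl groups on cytosines of CpG dinucleotides that carried none. Methylated CpGs fill most of the genome, while CpG islands, which cover the promoters of most housekeeping genes, are usually kept unmethylated. Acute contraction has been linked to a brief loss of methylation at promoters of metabolic genes in muscle that is regained within hours, and a deletion of a methyltransferase in muscle bears on whether such a swing can occur without it. The Cre transgene used here acts in maturing muscle fibres and in heart, so that satellite cells, endothelium, fibroblasts and blood cells of the soleus keep an intact gene. In a lysed whole muscle, a changed share of a cell type and a changed level within a cell type cannot be told apart.

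The total number of methylation calls was 13658560 to 30686138 over these samples and 12819404 to 41285655 over all 44. It was 23 ± 6.04 megacalls (SD, n = 5) at rest and 22.9 ± 6.86 megacalls (SD, n = 5) at 10 min. Median coverage per CpG lay between 48 and 114 calls in these 10 muscles. Numbers in the labels ran from 1 to 25 for rest and 60 min and from 26 to 50 for 10 and 30 min, so the set of numbers and exercise cannot be told apart in this comparison. RRBS reads carry no molecular identifiers, and limits given below for levels of 0 cover counting error only.

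No CpG cluster, promoter, gene body or single CpG passed an adjusted p of 0.05 between 10 min and rest. The 7 sequences that follow are the 6 named clusters whose means differed by over 10 percentage points, and the cluster of the glycogen phosphorylase gene Pygm. Each is the plus strand of GRCm38 (RefSeq), with 10 bases on either side, and capitals mark the CpGs that were measured.
Wwox, intron, chr8:115124078-115124198: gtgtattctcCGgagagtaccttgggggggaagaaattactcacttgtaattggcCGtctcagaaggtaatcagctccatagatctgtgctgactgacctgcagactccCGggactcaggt
Crocc2, coding exon, chr1:93193553-93193649: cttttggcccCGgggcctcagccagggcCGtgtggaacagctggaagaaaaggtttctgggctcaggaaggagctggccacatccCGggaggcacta
Intergenic, near Tmem174, chr13:98626798-98626946: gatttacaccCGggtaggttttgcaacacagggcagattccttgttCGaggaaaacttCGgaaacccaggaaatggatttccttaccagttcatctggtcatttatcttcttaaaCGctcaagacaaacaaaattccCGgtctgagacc
Igsf21, intron, chr4:140038668-140038780: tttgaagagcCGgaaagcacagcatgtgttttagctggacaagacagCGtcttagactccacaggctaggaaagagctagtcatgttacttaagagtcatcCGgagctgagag
Intergenic, near Rngtt, chr4:33552925-33553003: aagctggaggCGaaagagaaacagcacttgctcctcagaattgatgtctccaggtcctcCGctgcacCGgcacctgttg
Ssh1, intron, chr5:113974625-113974705: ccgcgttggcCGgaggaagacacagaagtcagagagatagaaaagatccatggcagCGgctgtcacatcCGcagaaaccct
Pygm, coding exon, chr19:6384528-6384635: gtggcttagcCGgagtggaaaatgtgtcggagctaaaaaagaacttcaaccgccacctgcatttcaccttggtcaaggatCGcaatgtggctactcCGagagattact

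These sequences held 3 measured CpGs each, except for the one near Tmem174, which held 5. The Ssh1 and Pygm sequences each held 5 CpGs in all, 3 of which were in the table. A complete CCGG lay in each of them, once or 2 times. Of the sequence near Rngtt, 15.2% was marked as repeat in the reference, and none of the other 6.

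Whether exercise moved the methylation of the whole measured genome in knockout muscle was addressed with the level of each sample, that is methylated calls over all calls. With all calls pooled, the level at rest was 30.2%, 29.6%, 25.3%, 37.5% and 33.6%, and at 10 min it was 26.4%, 25.5%, 36.5%, 33.5% and 29.9%. Both groups spanned nearly the same range. The means were 31.2% ± 4.56 (SD, n = 5) at rest and 30.3% ± 4.67 (SD, n = 5) at 10 min, a difference of -0.911 percentage points (exact permutation test, two-sided, p = 0.738). A single CpG at position 98666503 of chromosome 2 held 5.6% of all calls of the series and another at 98662794 held 0.865%. Without these 2 deep CpGs the difference was -1.11 percentage points (exact permutation test, two-sided, p = 0.635).

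As the unweighted mean over 205304 CpGs, in which each CpG counts alike, the level was 25%, 24.5%, 24.1%, 25.4% and 25.6% at rest and 24.2%, 23.2%, 24.7%, 25.4% and 24.9% at 10 min. One exercised female, sample 28, was the lowest of these muscles and also the shallowest. The means were 24.9% ± 0.634 (SD, n = 5) and 24.5% ± 0.823 (SD, n = 5), and the difference of -0.413 percentage points was smaller than the SD of either group (exact permutation test, two-sided, p = 0.413). In WT muscle the same difference was -0.378 percentage points (exact permutation test, two-sided, p = 0.46), from 25.5% ± 0.765 (SD, n = 5) to 25.1% ± 0.789 (SD, n = 5). The response of the knockout minus that of WT was -0.0357 percentage points (exact permutation of time within genotype, p = 0.959).

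**Figure D1:**
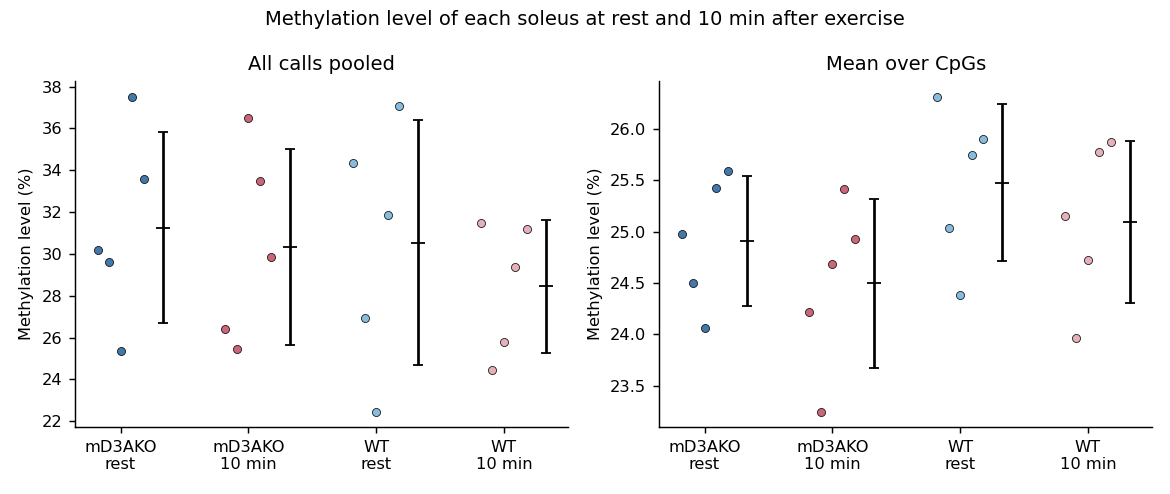
Methylation level (%) of each soleus with all calls pooled (left) and as the mean over CpGs (right), by genotype and time, with bars at the mean ± SD of 5 samples; the axes do not start at 0. Knockout samples at rest and at 10 min overlap in both measures, from 25.3% to 37.5% pooled and from 23.2% to 25.6% as the mean over CpGs.

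Genomic contexts were then examined one by one, as unweighted means over their CpGs. CpG islands stood at 11.6% ± 0.292 (SD, n = 5) at rest and 11.4% ± 0.312 (SD, n = 5) at 10 min. Shores, the 2000 bp beside an island, stood at 46.5% ± 1.39 (SD, n = 5) and 45.6% ± 1.87 (SD, n = 5), and open sea at 61.5% ± 1.41 (SD, n = 5) and 60.6% ± 2.08 (SD, n = 5). Promoters were nearly unmethylated, with 3.28% ± 0.129 (SD, n = 5) and 3.19% ± 0.127 (SD, n = 5). With calls pooled the promoter level was 17.9% ± 4.74 (SD, n = 5) and 17.8% ± 4.79 (SD, n = 5). Gene bodies had 19.2% ± 0.552 (SD, n = 5) and 18.9% ± 0.666 (SD, n = 5). All 9 contexts had a lower mean at 10 min, with overlapping groups in each, and the contexts share samples and CpGs. The widest gap of the unweighted means, -1.48 percentage points, was at CpGs of intermediate level (20 to 80% in WT), where the SD was 2.23 at rest and 3.01 at 10 min. With calls pooled the widest gap was at shores, with -2.01 percentage points. Adjusted over the 9 contexts, the exact permutation p-values were 0.518 to 0.524.

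The groups were not separated by the overall pattern of methylation either. The authors joined CpGs up to 100 bp apart into clusters, but the measured CpGs of a cluster can lie further apart than that. In the 51038 clusters, time accounted for 10.8% of the squared distance between these muscles, with a pseudo-F of 0.971 (exact permutation test, p = 0.643). A pseudo-F of about 1 is what samples drawn from one population give. The median cluster varied between muscles of one group with an SD of 7.36 percentage points at rest and 7.72 at 10 min, and the median absolute difference between the group means was 2.91 percentage points. Clusters of a single CpG differed by 5.33 percentage points in the median. Clusters with at least 3 CpGs and 50 calls in each of the 10 muscles differed by 1.02, and 881 of these 20672 clusters had means more than 10 percentage points apart. In WT, 1153 of the same 20672 clusters did.

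Across all clusters, the edgeR quasi-likelihood test called 0 of 51038 between 10 min and rest (0% called), with 1477 (2.89%) at an unadjusted p under 0.05, of which 584 (1.14%) were higher and 893 (1.75%) lower at 10 min. If no cluster differed, 2551.9 would be expected at an unadjusted p under 0.05, more than were found. limma and a quasi-binomial model also called 0. The edgeR likelihood ratio test called 20 (0.0392%), 7 higher and 13 lower. In that test 6.82% of clusters and 8.61% of gene bodies had an unadjusted p under 0.05. Of 9761 promoters the quasi-likelihood test called 0 (0%), with 367 (3.76%) at an unadjusted p under 0.05, and the likelihood ratio test called 3 (0.0307%). Of 12391 gene bodies these tests called 0 (0%) and 74 (0.597%), with 409 (3.3%) at an unadjusted p under 0.05 in the quasi-likelihood test. Single CpGs gave 0 of 205304 (0%) by all the tests run, with 6052 (2.95%) at an unadjusted p under 0.05 in the quasi-likelihood test, 1.37% higher and 1.57% lower. The directions were 1.83% higher and 1.93% lower for promoters and 1.24% and 2.06% for gene bodies.

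**Figure D2:**
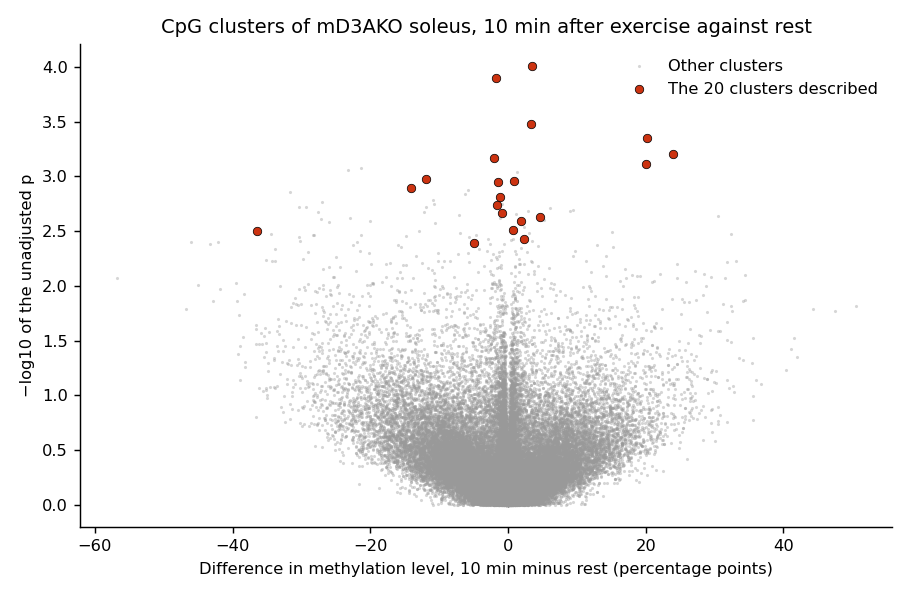
Each point is 1 of 51038 CpG clusters of knockout soleus, with the difference in mean level between 10 min and rest in percentage points on the horizontal axis and −log10 of the unadjusted quasi-likelihood p on the vertical axis. The 20 clusters described in the text are in red and all had an adjusted p of 1.

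The levels of all 5 exercised knockout muscles lay above all 5 at rest in 127 clusters (0.249%) and below them in 194 (0.38%), together 0.629% of clusters. In WT the corresponding share was 0.688%. None of the 127 or the 194 clusters was also apart in the same direction in WT. With so small a share apart in WT, unrelated sets of this size would share few clusters or none. This count therefore does not show that the clusters are particular to the knockout. Of the 127 clusters, 52 (40.9%) lay mostly in CpG islands and 45 (35.4%) in open sea. Of the 194 these numbers were 62 (32%) and 80 (41.2%), and over all clusters the shares were 36.6% and 37.9%. The genes described next come from the clusters that were apart, held at least 3 CpGs and had at least 50 calls in every muscle, 62 higher and 76 lower at 10 min, and are the 10 with the lowest p in each direction. They were taken for not overlapping, so their lack of overlap is not a result.

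Among the named clusters with higher levels at 10 min, the lowest p belonged to the promoter of Efemp1, which encodes fibulin-3, a glycoprotein of the extracellular matrix. Its 7 CpGs (chr11:28853309-28853368, exon and untranslated region, CpG island) had levels of 0%, 0%, 0.126%, 0% and 0% at rest and 2.57%, 7.16%, 2.66%, 2.24% and 3.02% at 10 min. The measured level was at or near 0 in every resting muscle and low, though above that, in every exercised one. A resting muscle at 0 allows a level of up to 0.42% to 2.38%, depending on its calls. The highest of these limits was above the lowest exercised level, 2.24%. In the mean the promoter was at 0.0251% ± 0.0561 (SD, n = 5) at rest and 3.53% ± 2.05 (SD, n = 5) at 10 min. The edgeR quasi-likelihood p was 9.8e-05 unadjusted and 1 adjusted, and the adjusted p of the likelihood ratio test was 0.0128. In WT the promoter had 0.96% ± 0.556 (SD, n = 5) at rest and 1.91% ± 3.77 (SD, n = 5) at 10 min.

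Hspa12b, a distant member of the HSP70 chaperone family that is found in endothelium, had a promoter cluster of 5 CpGs (chr2:131127393-131127456, CpG island) with 0 methylated calls in all 5 resting knockout muscles. A count of 0 in 2639 calls, those of all 5 muscles together, allows a level of up to 0.114%. For a single resting muscle the limit was 0.339% to 0.952%, which is above the lowest level at 10 min. At 10 min the levels of the cluster were 3.46%, 6.67%, 0.21%, 2.68% and 3.5%. The WT muscles, with 4.61% ± 3.85 (SD, n = 5) at rest and 2.73% ± 3.44 (SD, n = 5) at 10 min, were spread over the range of both knockout groups. The unadjusted p in the knockout was 0.00033 and the adjusted p 1 (edgeR quasi-likelihood test). In the likelihood ratio test the adjusted p was 0.00957 for the cluster and 7.02e-05 for the gene body, which holds the same CpGs.

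Further promoter islands were close to 0 at rest with a somewhat higher mean at 10 min. A single muscle at 0 in the features named here allows a level of up to 0.11% to 5.77%, depending on its calls. For single resting muscles the limit reached 0.652% at Nek7 and 0.769% at Naa60, above the lowest exercised level of each. Limits given beside a number of calls are for all 5 muscles of a group together. Nek7, a kinase required by the NLRP3 inflammasome, had 0 methylated calls in 3050 at rest, which allows up to 0.0984%, and 0.962%, 0.625%, 0.506%, 0.316% and 2.19% at 10 min. Adra2b, an adrenergic receptor for catecholamines, had 0.239% ± 0.408 (SD, n = 5) and 2.19% ± 1.15 (SD, n = 5). The island shared by Psmd13, a subunit of the proteasome cap, and Sirt3, a mitochondrial deacetylase, had 0.12% ± 0.104 (SD, n = 5) and 0.805% ± 0.428 (SD, n = 5) over 21 CpGs. Naa60, an acetyltransferase of protein N-termini, had 0 methylated calls in 3209 at rest, which allows up to 0.0935%, and 0.174%, 1.55%, 0.318%, 7.1% and 2.34% at 10 min, with the highest level in sample 39. Its exon is also annotated to Gm26675 and Zfp597. These low levels rest on few methylated calls, and each of these clusters had an adjusted p of 1 in the edgeR quasi-likelihood test. The adjusted p of the likelihood ratio test was 0.0449 for Naa60, 0.0701 for Nek7, 0.0933 for Adra2b and 0.29 for Psmd13. Cnn2 (calponin 2), named among promoters but not among clusters, had 0.293% ± 0.224 (SD, n = 5) and 1.66% ± 1.08 (SD, n = 5), with overlapping groups.

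Larger differences were found outside promoters. In an intron of Wwox, a WW-domain oxidoreductase, 3 CpGs in open sea had 66.1%, 72.6%, 70.4%, 53.4% and 62.3% at rest and 82.9%, 78.5%, 89%, 82.5% and 92.7% at 10 min. The exercised muscles were all above the resting ones, a lack of overlap that the rule naming the cluster required. The middle CpG of the printed sequence was the one at which the groups did not overlap by itself. The means were 65% ± 7.57 (SD, n = 5) and 85.1% ± 5.66 (SD, n = 5), a difference of 20.1 percentage points with an unadjusted p of 0.00045 and an adjusted p of 1. In WT they were 71.4% ± 11.8 (SD, n = 5) and 67.5% ± 6.33 (SD, n = 5). The knockout at 30 and 60 min stood in between, with 76% ± 8.58 (SD, n = 7) and 75.6% ± 5.08 (SD, n = 6).

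In a coding exon of Crocc2, a relative of the ciliary rootlet protein rootletin, 3 CpGs had 26.4%, 20.4%, 37.6%, 29.5% and 28.1% at rest and 49.2%, 60.7%, 49.1%, 43.6% and 59.6% at 10 min. Each of the 3 CpGs had the higher mean at 10 min, by 16.8, 25.2 and 29.9 percentage points from the first to the last in the printed sequence. The cluster means were 28.4% ± 6.2 (SD, n = 5) and 52.4% ± 7.4 (SD, n = 5), while WT and the other times of the knockout lay near the resting value. WT had 30.1% ± 8.76 (SD, n = 5) at rest and 25.9% ± 7.83 (SD, n = 5) at 10 min, and the knockout had 29.6% ± 6.12 (SD, n = 7) at 30 min and 29.1% ± 5.57 (SD, n = 6) at 60 min. The difference of 24 percentage points between 10 min and rest had an unadjusted p of 0.00063 (edgeR quasi-likelihood test). The response of the knockout minus that of WT had an unadjusted p of 0.0034 in the same test, and both had an adjusted p of 1. The cluster was chosen on its knockout levels, which enter both, so neither p is independent of that choice.

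At the CpG island 8042 bp from Tmem174, the levels were 8.72%, 11.8%, 2.89%, 0.338% and 10.6% at rest and 26.1%, 33.7%, 21.1%, 30.9% and 22.7% at 10 min. The resting knockout mean was the lowest of the groups given here. WT had 20.3% ± 10.1 (SD, n = 5) at rest and 20.1% ± 14.6 (SD, n = 5) at 10 min, and the knockout 27.4% ± 3.92 (SD, n = 7) at 30 min and 21.6% ± 8.12 (SD, n = 6) at 60 min. The first 3 of its 5 CpGs had the same number of calls in the shallowest and in the deepest muscle, 9 and 82, as did the last 2, with 55 and 276. Spata16, a gene of spermatogenesis, closed this group with an intronic cluster at 95.2% ± 3.42 (SD, n = 5) at rest and 99.9% ± 0.185 (SD, n = 5) at 10 min.

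Among the 10 named clusters with lower levels at 10 min, the widest gap was in an intron of Ssh1, which encodes the slingshot phosphatase that activates the actin-severing protein cofilin. The 3 CpGs had 35.5%, 33.1%, 68.4%, 43.2% and 39.7% at rest and 0%, 1.5%, 17.9%, 13.7% and 4.65% at 10 min. The rule that named the cluster required groups that do not overlap, and here the gap between them lay from 17.9% to 33.1%. The means were 44% ± 14.2 (SD, n = 5) and 7.54% ± 7.84 (SD, n = 5), a difference of -36.4 percentage points that was -30.3 without the resting sample 12 and had an unadjusted p of 0.0031 and an adjusted p of 1 (edgeR quasi-likelihood test). The knockout at 30 min had 17.5% ± 15.3 (SD, n = 7) and at 60 min 26.1% ± 7.24 (SD, n = 6), and WT had 37.5% ± 14.3 (SD, n = 5) at rest and 48.5% ± 18.6 (SD, n = 5) at 10 min. All 3 CpGs had a lower mean at 10 min, by -39, -45.7 and -24 percentage points in the order of the sequence.

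Igsf21, an immunoglobulin-type adhesion protein of inhibitory synapses, had an intronic cluster at 10.6%, 10.8%, 19.3%, 17.4% and 15.1% at rest and 0.606%, 3.25%, 2.95%, 1.73% and 5.44% at 10 min. Its means were 14.6% ± 3.88 (SD, n = 5) and 2.79% ± 1.81 (SD, n = 5), against 14.8% ± 12.1 (SD, n = 5) and 12.8% ± 3.51 (SD, n = 5) in WT. Most of the difference was at the first CpG of the sequence, with -29.1 percentage points against -7.51 and -2.21 at the other two. The cluster nearest to Rngtt, the mRNA capping enzyme, at a distance of 50321 bp, had 13.8%, 18.3%, 23.3%, 30.4% and 18.5% at rest and 1.06%, 1.05%, 8.38%, 13.3% and 10.3% at 10 min. The resting knockout muscles, at 20.9% ± 6.3 (SD, n = 5), were at the level of WT at rest, 21.4% ± 13 (SD, n = 5), and the knockout at 30 and 60 min had 9.4% ± 4.7 (SD, n = 7) and 9.56% ± 3.25 (SD, n = 6). Both clusters had an adjusted p of 1.

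The remaining clusters with lower levels at 10 min had little methylation to begin with. Spire2, an actin nucleator, had 1.18%, 1.2%, 3.32%, 0.997% and 0.888% at rest and 0 methylated calls in 3422 at 10 min, which allows a level of up to 0.0877%. Its adjusted p was 1 in the quasi-likelihood and 0.0239 in the likelihood ratio test, and its exon is also annotated to Gm20388, so its calls cannot be given to 1 gene. Nol12, a nucleolar RNA-binding protein, had 0.828% ± 0.588 (SD, n = 5) at rest and 0 in 3021 calls at 10 min, which allows up to 0.0993%. The island 19232 bp from Pde10a had 1.68% ± 1.33 (SD, n = 5) at rest and 0 in 2351 calls at 10 min, which allows up to 0.128%, and WT at 10 min was likewise at 0%. For a single muscle at 10 min the limit reached 0.671% at Spire2, 1.01% at Nol12 and 1.65% near Pde10a. In each of these 3 loci the resting level was itself under 5% in every muscle.

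Timmdc1, an assembly factor of mitochondrial complex I, had 1.65%, 1.82%, 2%, 2.37% and 1.83% at rest and 0%, 0%, 0.101%, 1.44% and 0% at 10 min. Its WT means had the same order, with 1.71% ± 1.24 (SD, n = 5) at rest and 0.0718% ± 0.121 (SD, n = 5) at 10 min. The homeobox gene Nkx1-1 had 2.56% ± 0.671 (SD, n = 5) and 0.474% ± 0.333 (SD, n = 5) over 17 CpGs, and the ubiquitin ligase gene Hecw2 had 1.31% ± 0.667 (SD, n = 5) and 0.101% ± 0.094 (SD, n = 5) over 26. Zfp608, a zinc finger gene, had 5.27% ± 4.02 (SD, n = 5) and 0.341% ± 0.762 (SD, n = 5) in an intron. Among promoters, Hps6, a gene of lysosome-related organelles, had 0.842% ± 1.21 (SD, n = 5) and 0.0212% ± 0.0474 (SD, n = 5), with overlapping groups and 2.94% in resting sample 8 alone.

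**Figure D3:**
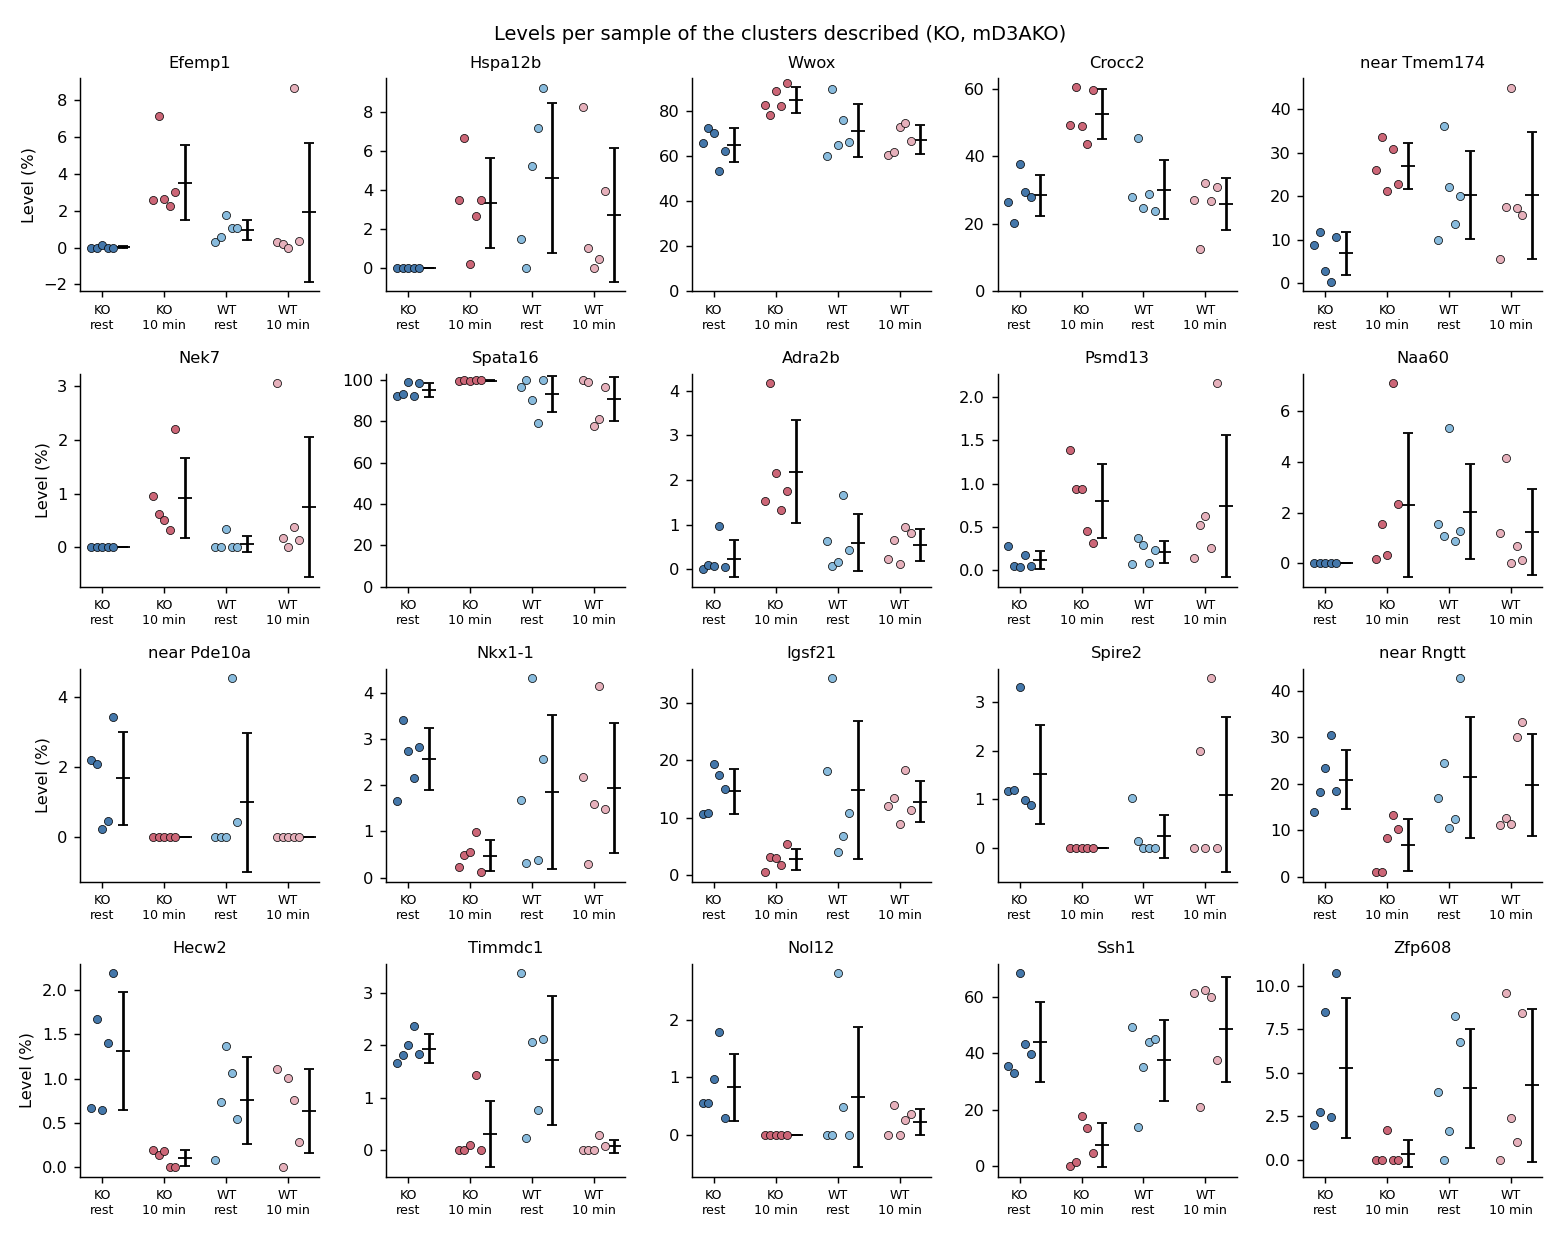
Methylation level (%) per sample of the 20 clusters described, each panel with its own axis, in knockout (KO) and WT muscle at rest and 10 min after exercise. Points are samples and bars the mean ± SD of 5, which can reach below 0 or above 100 where levels are near these bounds. WT samples span both knockout groups in some panels, such as Hspa12b, and not in others, such as Crocc2. Only clusters in which the knockout groups do not overlap were drawn.

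These 20 clusters were looked up in WT muscle, whose levels did not enter the difference or the overlap used to choose them but whose spread entered the fit behind the p-values. Of the 10 with higher levels in the knockout at 10 min, 3 also had a higher mean in WT at 10 min, and of the 10 with lower levels 6 had a lower mean in WT. The median differences were 3.4 percentage points in the knockout and -0.485 in WT for the first, and -1.88 and -0.277 for the second. Across all 51038 clusters, the difference in the knockout correlated with that in WT at a Pearson r of 0.0263, a value across clusters, which are not replicates. A test of the response of the knockout minus that of WT called 0 clusters (0%) in the quasi-likelihood test, with 1888 (3.7%) at an unadjusted p under 0.05, and 83 (0.163%) in the likelihood ratio test. The same quasi-likelihood test called 0 clusters (0%) between 10 min and rest in WT, with 2191 (4.29%) at an unadjusted p under 0.05, and the likelihood ratio test called 117 (0.229%).

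Within each set of sample numbers, 1 further comparison was possible for the knockout. Between 10 and 30 min, both numbered from 26 to 50, the quasi-likelihood test called 0 clusters (0%), with 1370 (2.68%) at an unadjusted p under 0.05. Between 60 min and rest, both numbered from 1 to 25, it called 0 (0%), with 1533 (3%) at that p. The likelihood ratio test called 16 (0.0313%) and 39 (0.0764%). The comparisons share the 10 min or the resting samples with the one described here.

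Among gene bodies, those with the lowest p included Cdc42ep1, an effector of the GTPase CDC42, whose 8 CpGs had 49.1%, 30.9%, 59.3%, 39.8% and 73.8% at rest and 23.9%, 11.3%, 29.4%, 34.6% and 5.47% at 10 min, with overlapping groups. Rad54l2, a helicase that binds the androgen receptor, had 20.2% ± 5.6 (SD, n = 5) and 8.41% ± 4.96 (SD, n = 5). Both had an adjusted p of 1. The gene bodies of Hspa12b and Hps6 overlap the promoter CpGs described above. That of Tbp, the TATA-binding protein gene, overlaps the promoter CpGs of Pdcd2, another named promoter, and was at 0.213% ± 0.212 (SD, n = 5) and 1.28% ± 0.805 (SD, n = 5). Nsd3, a histone methyltransferase gene, had 0 methylated calls in 1161 at rest, which allows up to 0.258%, and 0.273%, 0%, 1.09%, 1.38% and 2.93% at 10 min.

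The lowest p-value of a single CpG was at position 22857941 of chromosome 10, in the shore of an island 37767 bp from Tcf21. Near this gene of a mesodermal transcription factor every call was methylated in all 5 resting muscles, and the exercised ones had 85.9%, 95.6%, 92.2%, 91.6% and 86.3%. WT muscle had 92.8% ± 10.6 (SD, n = 5) at rest and 92.7% ± 9.53 (SD, n = 5) at 10 min, and the adjusted p in the knockout was 0.941 (edgeR quasi-likelihood test). In the other direction, a CpG 30836 bp from Cntln, a centriole protein gene, had 0 methylated calls in 432 at rest, which allows up to 0.694%, and 16.8%, 53.5%, 12.4%, 6.1% and 0% at 10 min, with the highest level in sample 28. A CpG 6470 bp from C1qa, a complement gene, had 0 methylated calls in 562 at rest, which allows up to 0.534%, and 8.57%, 8.41%, 0.592%, 8.96% and 0% at 10 min. Further named CpGs lay in introns of Gse1, at 0% to 1.47% in resting and 5.2% to 22.3% in exercised muscles, and of Sult2a2, at 100% in resting and 89.9% to 99% in exercised muscles.

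One list held metabolic regulators whose methylation has been studied after exercise. Of 7 on this list, 4 had a promoter cluster in the table, and none of the 4 had over 1.5% methylation in any of the 10 muscles. Ppargc1b, a coactivator of mitochondrial genes, had 0.551% ± 0.617 (SD, n = 5) at rest and 0.491% ± 0.241 (SD, n = 5) at 10 min over 28 CpGs. Tfam, the mitochondrial transcription factor, had 0.46% ± 0.631 (SD, n = 5) and 0.104% ± 0.234 (SD, n = 5). Cs, citrate synthase, had 0.562% ± 0.228 (SD, n = 5) and 0.308% ± 0.432 (SD, n = 5), and Mef2a, a muscle transcription factor, 0.401% ± 0.628 (SD, n = 5) and 0.502% ± 0.487 (SD, n = 5). With levels this low, a loss from the resting mean could at most be 0.562 percentage points. The other 3 genes of that list had no promoter CpG in the table. The study's introduction names the promoters of Ppargc1a, Tfam, Mef2a and Pdk4 as less methylated after intense exercise in humans. Of these, Ppargc1a and Pdk4 were not among the 4 with a promoter cluster.

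Over the 13 gene lists, 164 of 286 genes had a promoter cluster, and 131 of these clusters had a mean level under 5% at rest. None was called, 83 had a higher and 80 a lower mean at 10 min, and 1 had groups that did not overlap, against 0.65% of the 9695 promoter clusters of all genes. At an unadjusted p under 0.05, 4 were higher and 2 lower, against 1.9% and 2.19% of all. The 4 were Opa1, a fusion factor of mitochondria, Des, the muscle intermediate filament, Cebpd, a stress-induced transcription factor, and Metrnl, a myokine, and the 2 were Sgk1 and Ciart, a clock repressor. These 6 were named for their p after their values were seen, and each had an adjusted p of 1 and overlapping groups.

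Glucose uptake, glycogen and AMPK genes had a median difference of -0.153 percentage points over 19 promoter clusters, against -0.0158 over all genes. Their lowest value, and the 1 promoter cluster of the lists that did not overlap, was that of Pygm, muscle glycogen phosphorylase, the enzyme that releases glucose units from glycogen during contraction. Its 3 CpGs in a coding exon had 28.2%, 22%, 34.6%, 30% and 40.2% at rest and 17.9%, 11.5%, 20.7%, 11.6% and 16% at 10 min. The means were 31% ± 6.86 (SD, n = 5) and 15.5% ± 3.99 (SD, n = 5), with an unadjusted p of 0.0761 and an adjusted p of 1 (edgeR quasi-likelihood test). WT had nearly equal means of 22.3% at rest and 21.3% at 10 min, and the knockout had 23.2% at 30 min and 32% at 60 min. The highest difference on this list was 0.601 percentage points, at Irs2, an insulin receptor substrate.

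Immediate early genes, which contraction switches on within minutes, had a median difference of 0.0594 percentage points over 24 promoter clusters, 13 higher and 10 lower. Egr3, a zinc finger factor induced by stretch and nerve activity, had the highest, with 8.03%, 4.66%, 6.09%, 10.6% and 14.2% at rest and 8.55%, 14%, 17.8%, 18% and 10.3% at 10 min over 41 CpGs. The groups overlapped, and the unadjusted p was 0.076. Arc, a cytoskeletal immediate early gene, had the lowest difference, -1.46 percentage points, from 3.65% ± 3.29 (SD, n = 5) to 2.19% ± 2.06 (SD, n = 5).

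Genes of the glucocorticoid and stress response had a median difference of 0.0907 percentage points over 16 clusters. Sgk1, a kinase that glucocorticoids induce, had 2.07%, 2.19%, 2.46%, 9.31% and 7.74% at rest and 0.308%, 0.303%, 3.31%, 2.1% and 0.257% at 10 min. A pair of resting females were the high ones, and the unadjusted p was 0.0065. Angptl4, an inhibitor of lipoprotein lipase, had its one level above 1% in exercised sample 26, at 15.1%, and had the highest difference of this list. Circadian clock genes had a median of -0.192 percentage points over 16 clusters, from -1.37 at Per3, a clock repressor with 8.7% in resting sample 8, to 0.569 at the repressor Cry1.

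Among genes of mitochondria and fatty acid oxidation, with a median difference of 0.0566 percentage points over 19 clusters, the lowest value was that of Cycs, cytochrome c. It came from a single muscle: resting sample 8 had 49.3%, and the other 9 muscles had 0% to 1.05%. The highest value on this list, 1.55 percentage points at the fatty acid sensor Ppara, likewise came from sample 39, with 8.27%. Sarcomere and fibre type genes had a median of 0.267 percentage points over 13 clusters. Myh8, a perinatal myosin, had a single CpG with 74.1%, 20.9%, 58.3%, 79.1% and 85.1% at rest and 20.6%, 50%, 21.4%, 54% and 35% at 10 min, on 30 to 136 calls. Tpm3, a slow-fibre tropomyosin, was at the other end with 37.8% ± 11 (SD, n = 5) and 46.2% ± 20.1 (SD, n = 5), a difference that was 1.42 to 15.4 percentage points with samples left out.

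The DNA methylation machinery had a median of 0.0798 percentage points over 14 clusters. Gadd45g, a stress-induced gene linked to active demethylation, had 52%, 38.9%, 37.3%, 31.6% and 74.4% at rest and 33.8%, 13%, 29.9%, 29.1% and 38.8% at 10 min, with overlapping groups. Mbd3, a subunit of the NuRD complex, was at 0% in 9 muscles and at 10.2% in exercised sample 45. Dnmt3a itself had 3 clusters in the table, whose levels do not check the deletion. Its promoter island, with 13 CpGs, had 0.13% ± 0.209 (SD, n = 5) at rest and 0.518% ± 0.664 (SD, n = 5) at 10 min. An intronic cluster of 4 CpGs (chr12:3871815-3871919) had 4.52% ± 3.1 (SD, n = 5) and 1.8% ± 2.5 (SD, n = 5), and another (chr12:3891626-3891666) had 3.33% ± 3.85 (SD, n = 5) and 7.03% ± 6.11 (SD, n = 5), with overlapping groups in all of them. At the latter cluster WT had 29% ± 23.7 (SD, n = 5) at rest and 21% ± 13 (SD, n = 5) at 10 min, and the knockout had 3.8% ± 2.5 (SD, n = 7) at 30 min and 12.3% ± 21.8 (SD, n = 6) at 60 min.

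Myogenic factors and satellite cell genes had a median of -0.0855 percentage points over 11 clusters, from -1.72 at the myogenic regulator Myod1 to 0.601 at Pax3, a factor of muscle progenitors. Myokines and growth factors had 0.809 over 6 clusters, from -2.13 at the cytokine Il6 to 3.92 at Lif, a cytokine of the same family. The difference at Lif ranged from 0.0308 to 9.54 percentage points when samples were left out in turn. In WT the median of the same 6 clusters was 0.878. Imprinted genes, at which 1 parental allele is methylated, had 29.6% at rest and 31.1% at 10 min in the median over 11 clusters, and a median difference of 2.39 in the knockout and 2.33 in WT. Leaving out samples in turn moved the knockout value between 0.657, without exercised sample 34, and 4.15, without resting sample 24, and over all 15 promoter clusters of these genes it was 0.865. They ranged from -14.5 at the single CpG of Peg10 to 8.12 at the translational regulator Impact, which was 3.05 to 16.7 with samples left out.

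Genes followed in the study for their difference between genotypes are not an independent list, as they were picked on these samples. Of 11, 7 had a promoter cluster, all 7 had a lower mean at 10 min and none was called. The median difference was -2.28 percentage points in the knockout and -3.07 in WT, and it was -1.21 without exercised sample 26. When samples were left out in turn, the differences of Aldh1l1, Eef1a1 and Pax7 reached 0.578, 1.95 and 0.487 percentage points. The cluster of 1600002K03Rik had 0.91%, 2.86%, 1.58%, 1.07% and 7.87% at rest and 0.179%, 0.664%, 0.976%, 1.09% and 0% at 10 min. Agtrap, which binds the angiotensin receptor, had 5.82% ± 0.964 (SD, n = 5) and 3.19% ± 3.13 (SD, n = 5), and Sim2, a basic helix-loop-helix factor, 2.92% ± 1.92 (SD, n = 5) and 1.62% ± 1.14 (SD, n = 5). Aldh1l1, an enzyme of folate metabolism, had 57.5% ± 2.74 (SD, n = 5) and 53.7% ± 12.1 (SD, n = 5), Eef1a1, a translation factor, 6.51% ± 6.94 (SD, n = 5) and 6.14% ± 4.54 (SD, n = 5), and Pax7, the satellite cell factor, 2.72% ± 1.7 (SD, n = 5) and 2.47% ± 0.802 (SD, n = 5). Myh8, given above, was the remaining member. The groups overlapped in each of the 7.

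**Figure D4:**
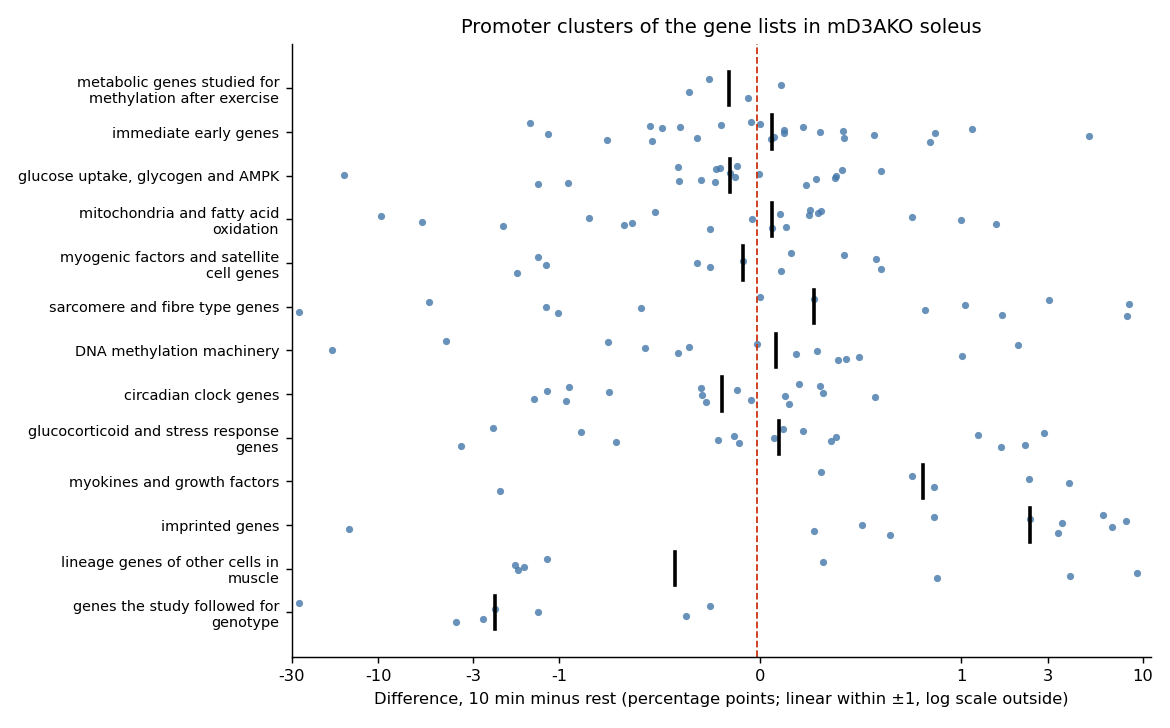
Difference in methylation level between 10 min and rest, in percentage points, of the promoter clusters of 13 gene lists in knockout soleus, on an axis that is linear within 1 point of 0 and logarithmic outside. Each point is a gene, black bars are the list medians and the dashed line is the median over all genes, -0.0158; the medians lie between -2.28 and 2.39, and no promoter cluster was called.

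Cell type markers were read at their promoter clusters, which few of them had. A promoter level of a whole muscle does not give the share of a cell type. Of 7 muscle fibre markers 3 had one, with a mean level of 0.0761% to 15.8% over the resting muscles and 3.13% to 30.1% over the exercised ones. The single CpG of Acta1 had 84.9% in exercised sample 26 and 0% to 45.7% in the other muscles, and Des had no methylated call in the resting group. Of the 27 markers of other cell types, 7 had one, among them Kdr of endothelium, with means of 1.05% at rest and 1.93% at 10 min, and Csf1r of macrophages, with 45% and 49%. Pdgfra of fibroblasts had 7.47% and 5.79%, and Myh11 of smooth muscle 5.75% and 4.19%. Lineage genes of other cells in muscle had a median difference of -0.425 percentage points over 8 clusters. The part of cell composition in the results above was not tested.

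Finally, the clusters with lower methylation in the knockout were examined for a response to exercise. They were taken from the 30 and 60 min samples, which are not in this comparison, and numbered 132 of 51038 clusters (0.259%), all lower in the knockout, with 7.49% of clusters at an unadjusted p under 0.05. Their median level was 4.92% at rest and 4.28% at 10 min in the knockout, and 14.7% and 14.9% in WT. The per-sample medians were 4.33%, 3.22%, 3.44%, 4.31% and 7.06% at rest and 3.6%, 2.82%, 3.13%, 5.17% and 5.02% at 10 min, with overlapping groups. At rest 130 of the 132 were lower in the knockout than in WT, and at 10 min 130 were. The median difference between 10 min and rest was -0.23 percentage points in the knockout and -0.155 in WT, and 0 clusters were called. At an unadjusted p under 0.05, 3 of the 132 were higher and 6 lower, against 1.14% and 1.75% of all clusters. None had groups that did not overlap, against 0.629% of all clusters.

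The 3 clusters with the lowest p for genotype, named after their values were seen, had similar means at rest and 10 min. Fut11, a fucosyltransferase, had 0.442% ± 0.268 (SD, n = 5) and 0.244% ± 0.2 (SD, n = 5) in the knockout, against 7.38% ± 7.25 (SD, n = 5) and 7.91% ± 2.78 (SD, n = 5) in WT. An intronic island of Unc45b, the chaperone of muscle myosin, had 1.66% ± 0.513 (SD, n = 5) and 1.42% ± 0.524 (SD, n = 5), against 19.1% ± 5.86 (SD, n = 5) and 15.2% ± 7.77 (SD, n = 5). Tbc1d1, a brake on GLUT4 vesicles that contraction signals release, had 3.74% ± 1.3 (SD, n = 5) and 5.57% ± 1.77 (SD, n = 5), against 13% ± 6.02 (SD, n = 5) and 12.7% ± 5.92 (SD, n = 5).

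**Figure D5:**
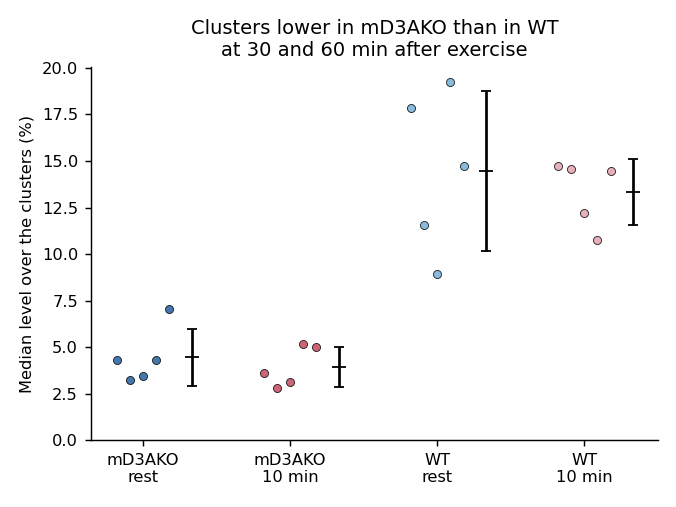
Median methylation level (%) per sample over the 132 clusters that were lower in knockout than in WT muscle at 30 and 60 min, here in the samples at rest and at 10 min, with bars at the mean ± SD of 5. Knockout samples lie between 2.82% and 7.06% at both times, below every WT sample.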

How the data were processed

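Methylation was measured by RRBS in soleus of mice, and the 10 samples compared were grouped by their labels. The members of this comparison and the gene lists were chosen with earlier results of these data known. The authors trimmed single-end reads with Trim Galore 0.4.0 and cutadapt 1.9.1, aligned them to mm10 with Bismark 0.18.1, added the calls of both strands per CpG, kept CpGs with at least 8 calls in every sample, and left out sex chromosomes and shallow samples. Per CpG and sample, the authors deposited raw counts of methylated and of unmethylated calls, not normalized; PCR copies cannot be told apart, so the number of calls may overstate the molecules behind a level. The authors' assignment of CpGs to clusters, promoters (from 3000 bp before a start to 1000 bp after it) and gene bodies was used as deposited. One sample whose title and genotype label differ was not assigned to a group, and it is among the 6 samples not used here.

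Counts were summed per feature and fitted in edgeR 4.0.16 over 44 samples, each sample having its own coefficient and each of the 8 groups a methylated one; the quasi-likelihood F test with a common dispersion was two-sided, with Benjamini-Hochberg adjustment and a threshold of 0.05. The study's methods name edgeR and genotype, time and their interaction. Alternatives were the likelihood ratio test, limma 3.58.1 on log2 ratios with 1 added to each count, a quasi-binomial model, a coverage minimum of 20, other cluster gaps, a sex term, fewer samples, a filter on level, and leaving out each sample. Levels per sample were compared with exact permutation tests over 252 assignments, whose smallest p is 0.00794. Levels of features are pooled calls per sample and groups are means of samples. Samples are muscles of separate mice, and p-values measure the spread between them. The chi-square per CpG between samples of a group was 6.9 to 14, far above sampling noise. The tests were also run on simulated counts. CpG islands were found in GRCm38 as 200 bp windows in which GC made up 0.5 or more of the bases and CpG reached 0.6 of its expected frequency. Symbols and exons came from GENCODE M21, which matched 13708 of 13722 identifiers.

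Clusters were named by rule: with fewer than 15 called, the 10 with the lowest p in each direction that had at least 3 CpGs, 50 calls in each of the 10 samples and groups that did not overlap; 5 promoters, 3 gene bodies and 3 single CpGs in each direction; from each gene list the promoter clusters with the lowest and highest difference; all genes of the metabolic list and of the list followed for genotype; and Dnmt3a. A gene had 1 promoter cluster in the lists, the one with most calls. Some features that this rule names are not reported here.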

Additional observations from a re-analysis of the deposited data

Results flagged for a closer look

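A value was singled out where the gap of the highest or lowest of 5 samples to the nearest other exceeded 0.71 of the range of its group. This was looked for in 128 groups of 5 and found in 21. For unselected values with a normal spread, chance gives about 1 in 20, or 6.4. Many of these features lie near 0 or were named for their differences, so the 21 cannot be read against that number. Where the other 4 samples are at 0, any methylated call is enough.

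In islands near 0, the high values were those of Efemp1 in resting sample 12 (0.126%, the others at 0%) and exercised sample 28 (7.16%, the others 2.24% to 3.02%), Adra2b in resting sample 21 (0.967%), Spire2 in resting sample 12 (3.32%), Timmdc1 in exercised sample 39 (1.44%), Hps6 in resting sample 8 (2.94%) and exercised sample 45 (0.106%), Tfam in exercised sample 26 (0.522%) and Cs in exercised sample 39 (1.05%). Zfp608 had 1.71% in exercised sample 34, with the others at 0%. Resting sample 24 had 7.87% at 1600002K03Rik, and resting sample 8 had 5.68% at Pax7, 8.7% at Per3 and 49.3% at Cycs. Exercised sample 39 had 8.27% at Ppara, sample 45 had 10.2% at Mbd3, sample 26 had 15.1% and resting sample 2 had 0.823% at Angptl4, and exercised sample 34 had 2.69% at Il6. At higher levels, resting sample 12 had 68.4% at Ssh1 (the others 33.1% to 43.2%) and exercised sample 28 had 20% at Lif (the others 45.5% to 50.5%).

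The knockout and WT moved apart without overlap at 1 of 51038 clusters, named after its values were seen, in an intron of Jakmip3 (chr7:139025305-139025351), a protein that binds microtubules. In the knockout it had 62% ± 1.99 (SD, n = 5) at rest and 73.6% ± 7.06 (SD, n = 5) at 10 min, a difference of 11.7 percentage points (edgeR quasi-likelihood test, unadjusted p = 0.0886). In WT it had 71.2% ± 5.21 (SD, n = 5) and 52.4% ± 13.6 (SD, n = 5), a difference of -18.8. The response of the knockout minus that of WT had an unadjusted p of 0.0044 and an adjusted p of 1 in the edgeR quasi-likelihood test. The cluster was chosen for moving apart in these same samples, so this p is not independent of the choice.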

How the results depend on the processing

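No paired analysis was possible because the groups compared share no sample number. The difference in pooled level was -0.911 percentage points and ranged from -2.45 to 0.656 when samples were left out in turn: it was 0.656 without resting sample 21, 0.0743 without exercised sample 26 and 0.306 without exercised sample 28, and never passed the test. Without 2 CpGs of a satellite repeat, an alternative chosen after seeing the data, it was -1.11. The difference in the mean over CpGs ranged from -0.643 to -0.1. The likelihood ratio test called 20 clusters, 3 promoters and 74 gene bodies where the quasi-likelihood test called 0; for clusters it called 83 for the difference in response, 117 for WT, 16 for 10 against 30 min and 39 for 60 min against rest, again against 0. Of 42 named features, chosen for a low p in the same fit, it called 9, and the cause was not tested. Efemp1, Hspa12b and Spire2 are among the 9 more than once, with the same CpGs. Of all features it called 0.0392% of clusters, 0.0307% of promoters, 0.597% of gene bodies and 0% of single CpGs. Leaving out WT sample 35 at 10 min gave 1 cluster for the difference in response, and the range over samples left out was 0 to 1. For 10 min against rest in the knockout, limma, the quasi-binomial model, a coverage minimum of 20 and a sex term gave 0 clusters. So did gaps of 50 and 200 bp between measured CpGs, and the 10 or the 23 knockout samples. A level of 5 to 95% and each sample left out also gave 0. At an unadjusted p under 0.05 there were 898 to 2476 clusters, or 2.52% to 4.85% of those tested, whose number differed between settings. Gaps of 50 and 200 bp gave 73938 and 56150 clusters, against 51038 as deposited. The medians of 7 of the 13 gene lists changed sign when some sample was left out, and none of these lists had a cluster called. Depth limits promoters at 0, where a muscle with few calls allows up to 2.38%.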
